A study of Homo sapiens with 14 samples.

Results

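The 10 Kruppel-like factor genes described here, KLF2, KLF3, KLF4, KLF5, KLF6, KLF7, KLF9, KLF10, KLF12 and KLF13, were followed through 7 treatment groups of MM1S, a human cell line established from multiple myeloma. All probe sets that carry only 1 of these symbols were taken, which gave 38 of the 54675 probe sets on the Affymetrix array. A probe set was used when its log2 level was at least 4 on at least 2 arrays, and the gene was represented by its passing probe set with the highest mean. By that rule 20 of the 38 probe sets and 9 of the 10 genes entered, among 9301 genes tested. KLF4 did not enter.

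Each group held 2 arrays from cells harvested after 6 h. Besides untreated cells there were groups with 1 nM salmeterol, with 12.5 nM CGS-21680, with a low dose (25 nM) or a high dose (2 µM) of dexamethasone, and with each agonist together with the low dose. Salmeterol is a beta-2 adrenergic agonist, CGS-21680 stimulates an adenosine receptor, and both raise cyclic AMP. Dexamethasone activates the glucocorticoid receptor. The title of the study asks how the agonists act in combination with dexamethasone. All groups are the same line. The labels call the replicates biological without saying how the cultures were kept apart, so p-values here reflect sample spread that may be technical.

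Kruppel-like factors are zinc finger proteins that bind GC-rich and CACCC sequences and share their DNA-binding end with the SP proteins. They differ in the rest of the protein: KLF2, KLF4, KLF5, KLF6 and KLF7 mostly act as activators with acetyltransferases, KLF3 and KLF12 repress through the CtBP co-repressors, and KLF9, KLF10 and KLF13 recruit the SIN3A complex. In lymphoid cells KLF2 is known for quiescence and for trafficking between tissues, and KLF9 is a well-known direct glucocorticoid target in many tissues.

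Array medians over the tested genes lay between 7.437 and 7.631 in log2, and replicates correlated at 0.9868 to 0.9919 across genes. The arrays of high dexamethasone were the least alike, with an SD of their differences of 0.365 against 0.286 to 0.341 in the other pairs. All 10 plasma cell markers on the list passed the filter, among them SDC1 at 11.32 to 13.15 and JCHAIN at 14.69 to 15.46. None of the 5 T cell markers passed, nor did any of the 5 myeloid markers, of which FCGR3A had no probe set of its own symbol alone, and 2 of 7 stromal and endothelial markers did, COL1A1 at 7.067 to 7.432 and PECAM1 at 5.392 to 5.999. The mean level of the plasma cell markers was 10.66 and 10.72 on the arrays of salmeterol with low dexamethasone and 10.9 and 11.12 on those of CGS-21680 with low dexamethasone, against 11.81 and 11.83 in untreated cells. In RNA from whole cultures, fewer cells of a kind and less RNA per cell cannot be told apart, and the part of this shift in the results on the combinations was not tested.

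Salmeterol with low dexamethasone moved 8 of the 9 tested members, more than any other treatment. KLF2, KLF5, KLF6, KLF7 and KLF9 were higher and KLF10, KLF12 and KLF13 lower than in untreated cells (limma, adjusted p under 0.05, as for every count here). Over all genes 24.6% were called in that comparison, and the members' median difference was 1.03 against -0.000885 for all genes. CGS-21680 with low dexamethasone called 3 of 9, KLF2, KLF6 and KLF9, all higher, where the background was 15.8%. All comparisons against untreated cells share the same 2 control arrays, so their values are given side by side.

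Single agents called at most 3 members each. Low dexamethasone called KLF2 and KLF9, both higher, against a background of 4.66% of all genes, and high dexamethasone called KLF2, KLF6 and KLF9, all higher, against 8.58%. Salmeterol called KLF2 and KLF12, both lower, with 5.97% of all genes called. CGS-21680 alone called 0 of 9 by limma, where 0.656% of all genes were called. At an unadjusted p under 0.05 the CGS-21680 count was 4 of 9 members and 784 of all genes.

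Adding salmeterol to low dexamethasone called 7 of 9 members relative to low dexamethasone alone, against 14.4% of all genes. KLF5, KLF6 and KLF7 were higher and KLF2, KLF10, KLF12 and KLF13 were lower. Adding CGS-21680 to low dexamethasone called only KLF13, which was lower, against 3.40%. Adding low dexamethasone to salmeterol raised KLF2, KLF5, KLF6, KLF7 and KLF9 relative to salmeterol alone, where 16.3% of all genes were called, and adding it to CGS-21680 raised KLF2, KLF6 and KLF9, where 13.8% were.

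The interaction of salmeterol with low dexamethasone, which is the change with salmeterol beside dexamethasone minus the change with salmeterol alone, called KLF5 and no other member, against 1.61% of all genes. KLF5 passed the filter only through the combination arrays, where it was high, so its place among the tested members is not independent of these differences. With no filter its interaction stayed called (adjusted p = 0.00517), as did its difference between the combinations (0.00685). KLF5 was also the member that differed between the combinations, being lower with CGS-21680 and low dexamethasone than with salmeterol and low dexamethasone, where 1.20% of all genes were called. The CGS-21680 interaction called 0 members against 0.151% of genes, with 2 members and 591 genes at an unadjusted p under 0.05, and CGS-21680 against salmeterol called 0 members against 0.495%, with 2 members and 1167 genes at that p. High against low dexamethasone called 0 members and 0% of all genes by limma, with 0 members and 328 genes at an unadjusted p under 0.05.

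**Figure D1:**
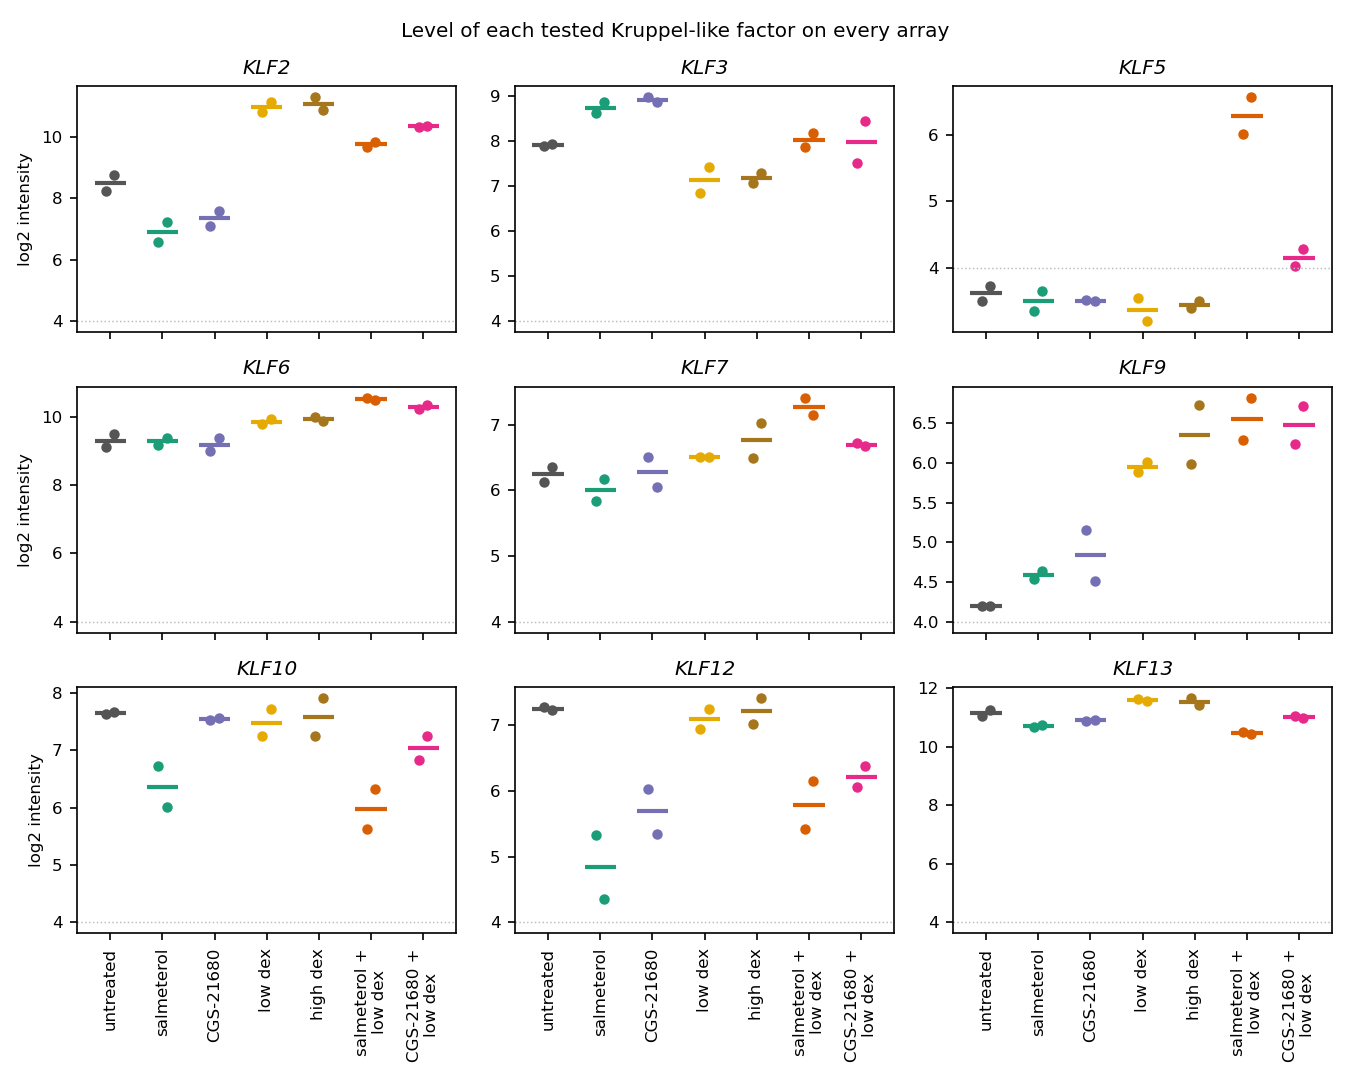
Log2 intensity of each of the 9 tested genes on every array; each panel has its own vertical scale, points are arrays, bars are means of 2, and the dotted line marks the filter level of 4. KLF2 is lowest on the 4 arrays with an agonist alone and highest on the 4 with dexamethasone alone, and KLF5 lies above 6 only on the 2 arrays of salmeterol with low dexamethasone.

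KLF2, an activator that keeps lymphocytes quiescent, had the widest range of the activating members, from 6.57 to 11.29. Untreated cells had log2 levels of 8.23 and 8.75, salmeterol gave 6.57 and 7.24, and CGS-21680 gave 7.11 and 7.58. Low dexamethasone gave 10.80 and 11.12, and high dexamethasone 11.29 and 10.86. Salmeterol with low dexamethasone gave 9.66 and 9.84, and CGS-21680 with low dexamethasone 10.32 and 10.36. The 8 arrays with dexamethasone were thus all above the 6 without it, and within both sets the arrays that also had an agonist were below those that had none.

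KLF2 rose by 2.47 ± 0.27 (SE) with low dexamethasone, a 5.55-fold rise (adjusted p = 0.0011), and by 2.59 with high dexamethasone (adjusted p = 0.00056). Salmeterol lowered it 3-fold, a log2 difference of -1.59 ± 0.27 (adjusted p = 0.0098), while the difference of -1.15 with CGS-21680 did not pass (adjusted p = 0.15). The fall with salmeterol lost its call without untreated replicate 2 (adjusted p = 0.0727) or salmeterol replicate 1 (0.0534). Those values show KLF2 moved in opposite directions by the glucocorticoid and the beta-2 agonist.

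In the combinations KLF2 took levels between those of the agents. It stayed above untreated cells by 1.26 with salmeterol and low dexamethasone (adjusted p = 0.0081) and by 1.85 with CGS-21680 and low dexamethasone (adjusted p = 0.0017). Compared with low dexamethasone alone it was lower with salmeterol added (difference -1.21, adjusted p = 0.016), and the difference of -0.62 with CGS-21680 added did not pass (adjusted p = 0.31). Low dexamethasone raised it by 2.85 in salmeterol-treated cells (adjusted p = 0.00012) and by 2.99 in CGS-21680-treated cells (adjusted p = 0.00014). The salmeterol interaction was 0.37, with a 95% interval of -0.485 to 1.23 (adjusted p = 0.81), so an interaction of a size within that interval could not be told from 0.

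Single arrays carried part of the KLF2 result in the salmeterol combination. The rise over untreated cells lost its call without untreated replicate 1 (adjusted p = 0.0675) or without salmeterol with low dexamethasone replicate 2 (0.051). The fall from low dexamethasone lost it without low dexamethasone replicate 2 (0.107) or without either array of the combination (0.0972 and 0.0509), and with no filter on dim genes (0.0651). In order of level the groups ran high dexamethasone, low dexamethasone, CGS-21680 with low dexamethasone, salmeterol with low dexamethasone, untreated, CGS-21680, salmeterol. Of these neighbours, salmeterol with low dexamethasone and untreated cells differed by the test, and high and low dexamethasone (0.11, adjusted p = 1), the combinations (0.59, adjusted p = 0.51), untreated and CGS-21680, and the agonists (0.44, adjusted p = 0.54) did not pass. The remaining neighbours, CGS-21680 with low dexamethasone and low dexamethasone, also missed the threshold as given above. A KLF2 probe set that did not pass the filter stayed between 2.286 and 2.683 on all arrays.

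The 250 bases ahead of the annotated start of KLF2 are shown because KLF2 was the member with the largest difference in the dexamethasone comparisons, and those of KLF5 and KLF9 are shown with those genes. The sequences are RefSeq's, from a table of promoters on GRCh38.p14 that held 15 promoters of 8 members; KLF3 and KLF10 were not in it. Each was searched on both strands for TGACGTCA, the full cyclic AMP response element, for the core TGACG, which the full element contains, for AGAACA, an arm of the glucocorticoid response element, for the GC box GGGCGG and for CACCC. Capitals mark the TGACG core, the AGAACA arm and the GC box, each also as its reverse complement, and neighbouring GC boxes can overlap. The KLF2 sequence lies at chr19:16324576-16324825 on the plus strand and ends at the base before the start.
KLF2 promoter: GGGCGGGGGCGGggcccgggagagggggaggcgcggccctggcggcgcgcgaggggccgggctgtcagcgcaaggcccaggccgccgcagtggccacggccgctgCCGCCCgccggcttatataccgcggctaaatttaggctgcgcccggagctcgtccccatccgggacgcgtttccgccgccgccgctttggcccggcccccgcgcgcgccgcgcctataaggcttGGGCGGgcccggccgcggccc
It held GC boxes 250, 244, 145 and 21 bases before the start and none of the other motifs, which says only that these letters are not in this window.

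Over the 15 member promoters, GGGCGG was found in 7, against 42.6% of 35116 promoters in the table, and CACCC in 7, against 54.7%. TGACG was found in 3, in KLF4, KLF5 and KLF13, against 21.2%, and AGAACA in 3, in KLF5, KLF7 and KLF12, against 12.4%. The full TGACGTCA was in 0 of the 15 and in 1.65% of all. Matches are a description of letters, and binding was not measured.

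KLF4, a reprogramming factor closely related to KLF2, stayed at or near the floor of the table. Its probe sets lay at 2.286 to 2.291 and at 2.296 to 3.288, with 3.288 on salmeterol replicate 1. The level of KLF4 was therefore not measurable in any group here, and the shared floor of the deposited values, 2.286, gives no order below it.

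KLF5, an activator best known from epithelial proliferation, was measured above the filter level in the combinations alone. Its levels were 3.50 and 3.73 in untreated cells, 3.35 and 3.65 with salmeterol, and 3.52 and 3.50 with CGS-21680. Low dexamethasone gave 3.54 and 3.20, and high dexamethasone 3.39 and 3.50. Salmeterol with low dexamethasone gave 6.01 and 6.57, and CGS-21680 with low dexamethasone 4.03 and 4.28. The 10 arrays with a single agent or none all lay below 4, the 2 CGS-21680 combination arrays just above it, and the 2 salmeterol combination arrays far above every other.

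With salmeterol and low dexamethasone KLF5 rose over untreated cells by 2.67 ± 0.20 (SE; adjusted p = 1.8e-05), which is at least 4.89-fold against a level of 4. The difference was 2.92 from low dexamethasone alone (adjusted p = 2.1e-05) and 2.79 from salmeterol alone (adjusted p = 2.6e-05), both also at least 4.89-fold against a level of 4. The interaction was 3.03 ± 0.28 (adjusted p = 0.00099). With levels below 4 raised to 4, each of these differences and the interaction was 2.29 and stayed called. All these calls were kept when any single array was left out.

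With CGS-21680 and low dexamethasone no KLF5 difference passed the test. The difference from untreated cells was 0.54 (adjusted p = 0.11), at least 1.11-fold against a level of 4, the difference from CGS-21680 was 0.64 (adjusted p = 0.064), and that from low dexamethasone was 0.78 (adjusted p = 0.076). Without either salmeterol combination array the difference from CGS-21680 passed (0.0356 in both fits), as did that from low dexamethasone (0.0459 and 0.0461). With no filter, or with levels below 4 raised to 4, neither passed, and in the latter both were 0.15. Between the combinations KLF5 was 4.39-fold lower with CGS-21680, a difference of -2.14 ± 0.20 (adjusted p = 0.0012). The other KLF5 probe set did not pass the filter, and its highest values, 2.607 and 2.524, were on the same 2 arrays of salmeterol with low dexamethasone.

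The promoters of both annotated starts of KLF5 are shown because KLF5 was the member with a called interaction of salmeterol and dexamethasone. They lie on the plus strand at chr13:73054726-73054975 and chr13:73058755-73059004, with the same capitals as for KLF2.
KLF5 promoter, first start: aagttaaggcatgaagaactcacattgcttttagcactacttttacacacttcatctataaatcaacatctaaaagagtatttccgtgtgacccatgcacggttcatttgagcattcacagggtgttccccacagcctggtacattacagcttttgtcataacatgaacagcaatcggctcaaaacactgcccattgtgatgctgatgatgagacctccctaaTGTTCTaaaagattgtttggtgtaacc
KLF5 promoter, second start: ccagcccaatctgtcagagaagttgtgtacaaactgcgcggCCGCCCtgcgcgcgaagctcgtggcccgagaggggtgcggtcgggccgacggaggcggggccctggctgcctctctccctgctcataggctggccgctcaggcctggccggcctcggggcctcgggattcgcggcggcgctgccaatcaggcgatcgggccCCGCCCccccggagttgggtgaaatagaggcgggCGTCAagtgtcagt
The first held TGTTCT, the reverse complement of AGAACA, 27 bases before its start. It also held GGGTG, the reverse complement of CACCC, 130 bases before it. The second held CGTCA, the reverse complement of TGACG, 14 bases before its start, and GC boxes 209 and 48 bases before it. GGGTG lay 177 and 32 bases before that start. The array cannot show which start was used.

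**Figure D2:**
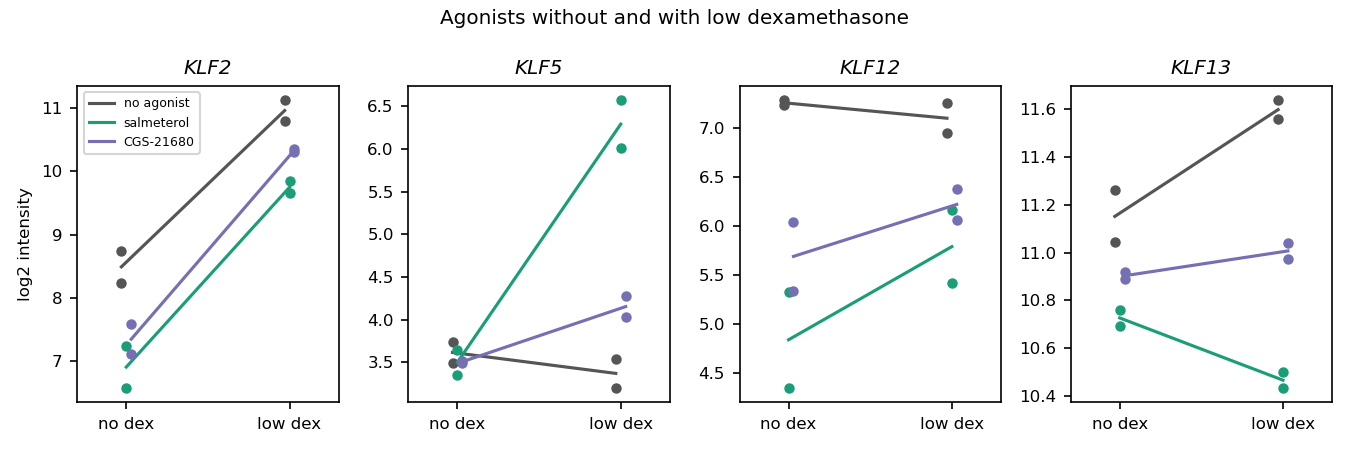
Log2 intensity (vertical axis, scaled for each gene) of KLF2, KLF5, KLF12 and KLF13 without and with low dexamethasone, for cells with no agonist, salmeterol or CGS-21680; points are arrays and lines join means of 2. The KLF2 lines run nearly side by side, with an interaction of 0.37 for salmeterol, and the KLF5 salmeterol line leaves the others, with an interaction of 3.03.

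KLF6, an activator found in nearly all tissues, was higher in both combinations than in untreated cells. Untreated cells had 9.12 and 9.49, salmeterol 9.19 and 9.38, and CGS-21680 8.99 and 9.38, which overlapped. Low dexamethasone gave 9.79 and 9.95, and high dexamethasone 10.01 and 9.87. The combinations gave 10.57 and 10.50 with salmeterol and 10.25 and 10.36 with CGS-21680. On this probe set all 8 arrays with dexamethasone stood above the 6 without, and the 4 combination arrays stood above the 4 with dexamethasone alone. The other passing probe sets of KLF6 did not keep that order. A high dexamethasone array lay at 9.057 on a further probe set, below all arrays without dexamethasone, and at 9.337 on another, above every other array.

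KLF6 was higher by 1.23 ± 0.16 (SE) with salmeterol and low dexamethasone (adjusted p = 0.00054) and by 1.00 with CGS-21680 and low dexamethasone (adjusted p = 0.003) than in untreated cells. With low dexamethasone alone the difference was 0.56 and missed the threshold (adjusted p = 0.091). Salmeterol added 0.66 to low dexamethasone (adjusted p = 0.024), while the 0.44 that CGS-21680 added did not pass (adjusted p = 0.22). Low dexamethasone added 1.24 to salmeterol (adjusted p = 0.00083) and 1.12 to CGS-21680 (adjusted p = 0.002). The salmeterol interaction was 0.68, with a 95% interval of 0.165 to 1.19, and did not pass (adjusted p = 0.25). It passed without either high dexamethasone array (1.14, adjusted p = 0.017 and 0.0169), where another probe set stood for the gene.

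The rise of KLF6 with high dexamethasone, 0.64 (adjusted p = 0.041), was the least secure of the calls against untreated cells. It was lost in 11 of the 14 fits that left out an array and kept without untreated replicate 2 (adjusted p = 0.0404) and without either CGS-21680 array (0.0306 and 0.0305). In the 11 fits the adjusted p ran from 0.0534 without salmeterol replicate 2 to 0.931 without CGS-21680 with low dexamethasone replicate 1, and the fits without low dexamethasone, salmeterol or salmeterol combination arrays and without CGS-21680 with low dexamethasone replicate 2 gave 0.0534 to 0.0631. Without untreated replicate 1 it was 0.45 (0.237), and without high dexamethasone replicate 2 0.32 (0.316). Without high dexamethasone replicate 1 the difference was -0.45 (0.0983) and without CGS-21680 with low dexamethasone replicate 1 it was -0.06. In these 2 fits, and without high dexamethasone replicate 2, another KLF6 probe set had the highest mean and stood for the gene. With no filter the adjusted p was 0.113.

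Some other KLF6 calls were also lost when an array was left out. In the fit without CGS-21680 with low dexamethasone replicate 1, where another probe set stood for the gene, that combination differed by 0.90 (adjusted p = 0.061) from untreated cells and by 0.98 (0.053) from CGS-21680. The rise from low dexamethasone with salmeterol added lost its call without either low dexamethasone array (0.128 and 0.0653) or either combination array (0.119 and 0.0757), and with no filter (0.069). All 4 passing probe sets of KLF6 were higher with salmeterol and low dexamethasone than in untreated cells, by 0.86 to 1.44 (adjusted p 0.00073 to 0.0049 over all probe sets). With high dexamethasone they gave -0.06, 0.51, 0.64 and 1.25, so they did not give the same answer there.

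KLF7, an activator known from neurons and lymphoid cells, rose with salmeterol and low dexamethasone. Its levels were 6.13 and 6.36 in untreated cells, 5.84 and 6.17 with salmeterol, 6.51 and 6.04 with CGS-21680, 6.51 on both low dexamethasone arrays, and 6.49 and 7.02 with high dexamethasone. Salmeterol with low dexamethasone gave 7.41 and 7.14, above all other arrays, and CGS-21680 with low dexamethasone 6.72 and 6.67. The difference between the salmeterol combination and untreated cells was 1.03 ± 0.21 (SE; adjusted p = 0.0065), from low dexamethasone 0.76 (adjusted p = 0.04) and from salmeterol 1.27 (adjusted p = 0.0032). The difference of 0.45 with CGS-21680 and low dexamethasone from untreated cells did not pass (adjusted p = 0.2), nor did the salmeterol interaction of 1.00 (adjusted p = 0.18).

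Of the KLF7 calls, the rise over salmeterol was kept without any single array. The rise over untreated cells lost its call without untreated replicate 1 (adjusted p = 0.0513) or the combination's replicate 1 (0.0531). The rise over low dexamethasone lost it without any of the untreated, low dexamethasone, salmeterol combination or CGS-21680 combination arrays (0.0547 to 0.214), and with no filter (0.13). Another KLF7 probe set, which spanned 3.758 to 6.461, was higher by 1.76 in the salmeterol combination than in untreated cells (adjusted p = 0.0096 over all probe sets). Its untreated arrays stood at 3.758 and 5.103, and the former was its lowest value on any array. The size of that difference thus rests partly on untreated replicate 1.

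**Figure D3:**
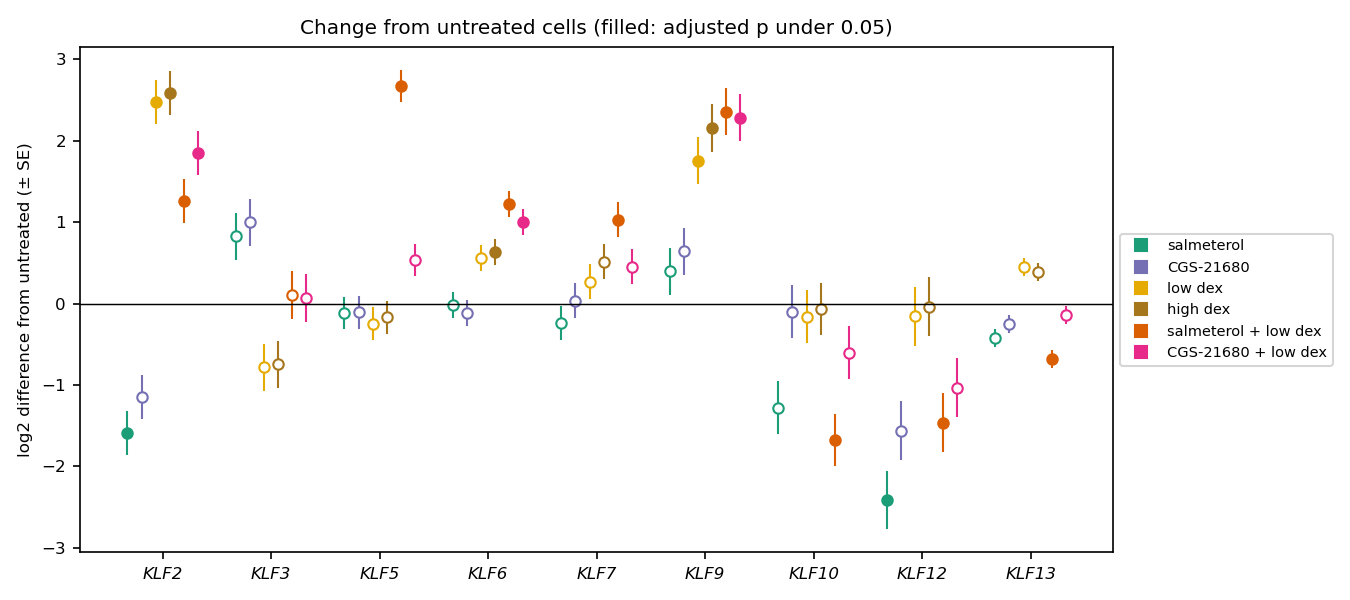
Log2 difference from untreated cells, with standard errors, for the 9 tested genes (horizontal axis) and the 6 treatments; filled points passed at an adjusted p under 0.05 and open points did not. Salmeterol with low dexamethasone has 8 filled points, 5 above and 3 below 0, and CGS-21680 alone has none.

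Of the CtBP-recruiting repressors, KLF12 fell with salmeterol. Its levels were 7.28 and 7.23 in untreated cells, 5.33 and 4.35 with salmeterol, and 6.04 and 5.34 with CGS-21680. Dexamethasone alone left 6.94 and 7.25 at the low dose and 7.02 and 7.41 at the high dose, which overlapped untreated cells. The combinations gave 5.42 and 6.16 with salmeterol and 6.06 and 6.38 with CGS-21680. All 8 arrays with an agonist were below all 6 without.

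KLF12 was 5.33-fold lower with salmeterol, a difference of -2.41 ± 0.36 (SE; adjusted p = 0.0056), and this call was kept without any single array. The differences of -1.57 with CGS-21680 (adjusted p = 0.14) and -1.04 with CGS-21680 and low dexamethasone (adjusted p = 0.089) did not pass. With salmeterol and low dexamethasone it was lower than in untreated cells, with a difference of -1.47 (adjusted p = 0.016), and lower than with low dexamethasone, with -1.31 (adjusted p = 0.04). The first of these was lost without either untreated array (0.077 and 0.0678), without the combination's replicate 1 (0.12) and with no filter (0.0698). The second was lost without either untreated, low or high dexamethasone or CGS-21680 combination array or the salmeterol combination's replicate 1 (0.0512 to 0.246), and with no filter (0.148).

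The KLF12 result rests on 1 of its 3 passing probe sets. The others stayed at 3.982 to 4.822 and 4.707 to 4.827 over all arrays, and with salmeterol they differed from untreated cells by -0.12 and 0.06. With the mean of the 3 probe sets the fall with salmeterol was -0.82 and stayed called.

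KLF3, the other CtBP-recruiting member, known in B cell development, had 0 calls in the 15 comparisons by limma, with 8 at an unadjusted p under 0.05. Untreated cells had 7.89 and 7.94, salmeterol 8.61 and 8.87, and CGS-21680 8.97 and 8.86. Low dexamethasone gave 6.83 and 7.43, high dexamethasone 7.06 and 7.28, salmeterol with low dexamethasone 7.86 and 8.19, and CGS-21680 with low dexamethasone 7.52 and 8.45. The arrays with an agonist alone were all above untreated cells and those with dexamethasone alone all below, opposite to the order of KLF2. The differences from untreated cells were 0.83 with salmeterol (adjusted p = 0.14), 1.00 with CGS-21680 (0.28), -0.78 with low dexamethasone (0.19) and -0.75 with high dexamethasone (0.16). These come from 1 of the 4 passing probe sets of KLF3. The other probe sets gave 1.15, 0.12 and 0.52 with salmeterol, 0.80, 0.06 and 0.70 with CGS-21680, -0.30, -0.20 and -0.56 with low dexamethasone and -0.29, -0.11 and 0.02 with high dexamethasone. With the mean of the 4 the difference with high dexamethasone was -0.28 (adjusted p = 0.553).

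Some KLF3 differences were near the threshold. CGS-21680 with low dexamethasone differed from CGS-21680 by -0.93 (adjusted p = 0.066), and salmeterol with low dexamethasone from low dexamethasone by 0.89 (0.075). After a further quantile normalization the adjusted p was 0.0456 for the former and 0.0372 for the latter. The former rested on single arrays: it was -1.40 (0.0116) without CGS-21680 with low dexamethasone replicate 2 and -0.46 (0.327) without replicate 1, and with the mean of probe sets it was -0.38 (0.368). Leaving out either array of that group brought the latter to 0.0225, leaving out low dexamethasone replicate 1 moved it to 0.59 (0.369), and with no filter its adjusted p was 0.232. The CGS-21680 combination differed from low dexamethasone by 0.85 without passing (0.18), by 1.32 (0.0398) without its replicate 1 and by 0.38 (0.641) without its replicate 2. The salmeterol combination differed from salmeterol alone by -0.72, which passed only without either CGS-21680 combination array (0.0459) and had an adjusted p of up to 0.422 in the other fits without an array. Across the 7 group means KLF3 and KLF2 had a Pearson correlation of -0.915, given as a description, since all groups share their handling and 2 arrays each.

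KLF9, which recruits SIN3A, rose with dexamethasone in every group that had it. Untreated cells had 4.20 on both arrays, salmeterol 4.54 and 4.64, and CGS-21680 5.16 and 4.52. Low dexamethasone gave 5.89 and 6.02, and high dexamethasone 5.99 and 6.73. Salmeterol with low dexamethasone gave 6.29 and 6.82, and CGS-21680 with low dexamethasone 6.24 and 6.72. The 8 arrays with dexamethasone lay above the 6 without it, and untreated cells were lowest, close to the filter level.

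The rise in KLF9 over untreated cells was 1.76 ± 0.29 (SE) with low dexamethasone, a 3.38-fold rise (adjusted p = 0.0098), and 2.16 with high dexamethasone (adjusted p = 0.0022). It was 2.36 with salmeterol and low dexamethasone (adjusted p = 0.00038) and 2.29 with CGS-21680 and low dexamethasone (adjusted p = 0.00089). Low dexamethasone raised KLF9 by 1.97 in salmeterol-treated cells (adjusted p = 0.0018) and by 1.65 in CGS-21680-treated cells (adjusted p = 0.0059). Adding an agonist to low dexamethasone gave 0.60 for salmeterol (adjusted p = 0.23) and 0.53 for CGS-21680 (0.47), neither past the threshold. The salmeterol interaction of 0.21 had a 95% interval of -0.725 to 1.14.

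Only the low dexamethasone call of KLF9 was lost by leaving out an array: without either untreated array (adjusted p = 0.0683 and 0.0608) or either low dexamethasone array (0.0573 and 0.0729). Without high dexamethasone replicate 2, the rise with high dexamethasone was 1.79 and stayed called (0.0177), and that of KLF2 was 2.80 (0.00356). A further KLF9 probe set was at 2.55 on all 6 arrays without dexamethasone. It had 3.98 and 5.44 with low and 4.17 and 6.11 with high dexamethasone, 4.85 and 5.17 with salmeterol and low dexamethasone, and 5.37 and 5.57 with CGS-21680 and low dexamethasone. Both passing probe sets thus put all dexamethasone arrays above the rest. This further one passed the filter only through arrays with dexamethasone, so its order is not independent of the filter. The others of the 5 KLF9 probe sets did not pass the filter and stayed between 2.286 and 2.553 on all arrays.

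The KLF9 promoter is shown beside that of KLF2 because these members were called in the same direction at both dexamethasone doses. It lies at chr9:70414658-70414907 and is written for the minus strand, on which the gene is read.
KLF9 promoter: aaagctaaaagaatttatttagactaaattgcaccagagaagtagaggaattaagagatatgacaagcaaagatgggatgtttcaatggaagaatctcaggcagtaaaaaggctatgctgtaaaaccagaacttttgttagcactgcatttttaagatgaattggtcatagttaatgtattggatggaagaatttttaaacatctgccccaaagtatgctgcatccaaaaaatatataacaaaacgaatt
It held none of the motifs searched, which says only that the letters are not in this window.

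KLF10, a TGF-beta-inducible member that recruits SIN3A, had lower values in both salmeterol groups. Untreated cells had 7.63 and 7.66, salmeterol 6.73 and 6.00, and CGS-21680 7.53 and 7.56. Low dexamethasone gave 7.25 and 7.72, high dexamethasone 7.25 and 7.91, salmeterol with low dexamethasone 5.62 and 6.32, and CGS-21680 with low dexamethasone 6.83 and 7.25. The 4 arrays with salmeterol were the lowest of the 14. The difference between salmeterol with low dexamethasone and untreated cells was -1.68 ± 0.32 in log2 (SE; adjusted p = 0.0046), and from low dexamethasone -1.51 (adjusted p = 0.013).

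With salmeterol alone the KLF10 difference of -1.28 lay at the threshold (adjusted p = 0.051). It passed after a further quantile normalization (0.048), with a stricter filter of log2 5 (0.0423) and with the mean of probe sets (0.0489). A variance trend fitted together with robust moderation, called a variance trend below, also passed it (0.0412). It also passed without either high dexamethasone array (0.0471 and 0.0469), either salmeterol combination array (0.0475 and 0.0477) or salmeterol replicate 1 (0.047). In the other direction its adjusted p was 0.166 with no filter and up to 0.246 without an array, the latter without salmeterol replicate 2, where the difference was -0.92. CGS-21680 with low dexamethasone differed from untreated cells by -0.60 (adjusted p = 0.27). The fall from low dexamethasone in the salmeterol combination lost its call without low dexamethasone replicate 2 (0.0968), the combination's replicate 1 (0.0997) or the filter (0.0584). KLF10 has a single probe set on this array.

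KLF13, a SIN3A-recruiting member known in T cells for its action on CCL5, spanned the narrowest range of the 9 tested members over the arrays, from 10.43 to 11.66. Untreated cells had 11.04 and 11.26, salmeterol 10.69 and 10.76, and CGS-21680 10.89 and 10.92. Low dexamethasone gave 11.64 and 11.56, and high dexamethasone 11.66 and 11.41. The combinations gave 10.50 and 10.43 with salmeterol, the lowest of all arrays, and 11.04 and 10.97 with CGS-21680.

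Low KLF13 with salmeterol and dexamethasone passed the test against untreated cells, a difference of -0.68 ± 0.11 (SE; adjusted p = 0.0016), and against low dexamethasone, -1.13 or 2.19-fold lower (adjusted p = 0.00018). Both calls were kept without any single array, and the former was lost when its passing probe sets were averaged (-0.57, adjusted p = 0.0549). With CGS-21680 and low dexamethasone KLF13 was lower than with low dexamethasone, with a difference of -0.59 (adjusted p = 0.022). That call was lost without either array of either group (0.121, 0.0833, 0.0659 and 0.104) and with the mean of probe sets (0.317).

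For the single agents KLF13 stayed close to the threshold on both sides of untreated cells, with -0.42 for salmeterol (adjusted p = 0.055), 0.45 for low dexamethasone (0.053) and 0.38 for high dexamethasone (0.061). The salmeterol interaction was -0.71 (adjusted p = 0.066), with a 95% interval of -1.05 to -0.358. With a variance trend all 4 of these passed, at 0.0371, 0.0341, 0.0434 and 0.042, and without either high dexamethasone array the salmeterol (0.0369 and 0.0367), low dexamethasone (0.0363 each) and interaction values (0.047 and 0.0469) passed. KLF13 was 0.54 higher in the CGS-21680 than in the salmeterol combination without passing (0.056), and passed with a variance trend (0.0314) and without either high dexamethasone array (0.0378 and 0.0377). With the mean of probe sets the sizes of most of these changed: low dexamethasone gave 0.23 (0.626), the interaction -0.34 (0.721) and the difference between the combinations 0.36 (0.599), while salmeterol gave -0.45 (0.22) and high dexamethasone 0.71 and passed (0.0492). A weaker KLF13 probe set, between 6.034 and 8.490, differed by -0.45 between the salmeterol combination and untreated cells (adjusted p = 0.54 over all probe sets) and reached its highest value on high dexamethasone replicate 2.

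**Figure D4:**
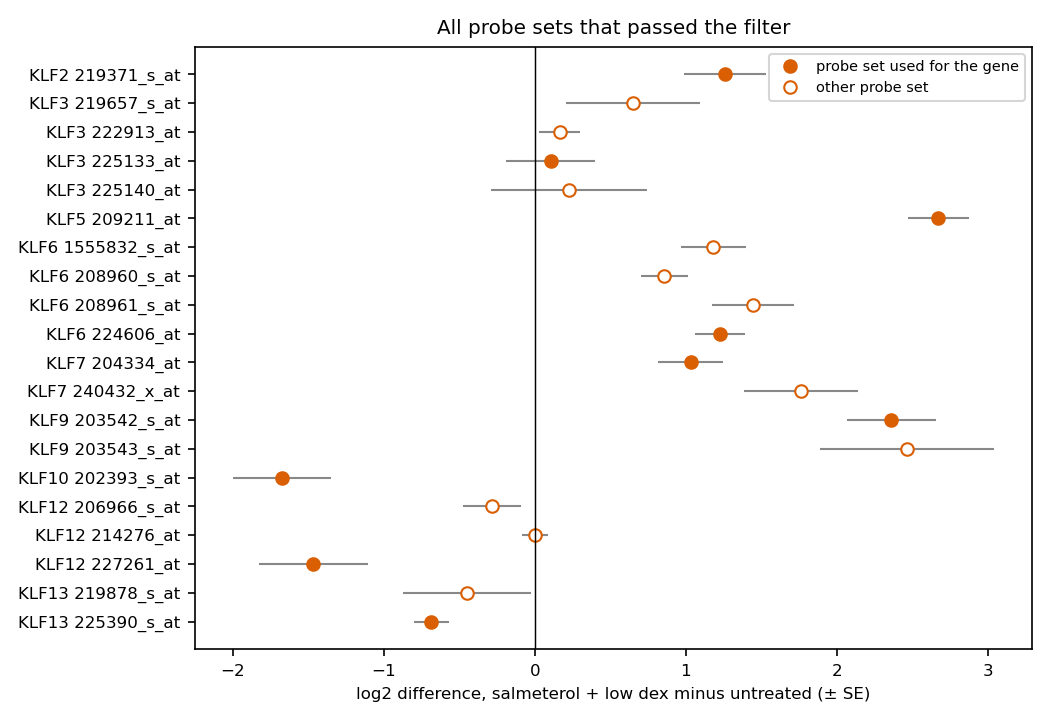
Log2 difference between salmeterol with low dexamethasone and untreated cells, with standard errors, for the 20 probe sets of the members that passed the filter; filled points stand for their gene. The 4 KLF6 probe sets lie between 0.86 and 1.44, and of the 3 KLF12 probe sets 1 lies at -1.47 while the others are near 0.

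Among the partners of the family, the co-repressors held the most calls. Of 6 tested co-repressor genes, salmeterol with low dexamethasone raised 4 and lowered 1 relative to untreated cells, where CGS-21680 with low dexamethasone raised 3 and lowered 0. Over all genes 24.6% were called in the former comparison and 15.8% in the latter. SAP30, a subunit of the SIN3 complex, rose by 2.27 (adjusted p = 3.1e-05) and 1.46 (8e-04) in these combinations. SIN3A, its scaffold, rose by 1.22 (0.012) and 1.14 (0.024), and CTBP1, the partner of KLF3 and KLF12, by 0.60 (0.0068) and 0.74 (0.0036). The other calls in the salmeterol combination, named after their values were seen, were HDAC3, higher by 0.44, and HDAC1, lower with a difference of -0.44. The co-repressors' median difference in that combination was 0.518, against -0.000885 over all genes.

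The other partner lists held few calls. Among 4 co-activators, KAT2A, an acetyltransferase, fell with salmeterol and low dexamethasone (difference -1.25, adjusted p = 0.0046) and was the only call against untreated cells, with 24.6% of all genes called in that comparison. The 4 tested SP relatives had 0 calls in 60 differences by limma, with 3 at an unadjusted p under 0.05. The 5 ubiquitin ligases that act on the family had 0 calls in 75, with 4 at that p. Over all genes, the 15 comparisons called from 0% to 24.6%, and from 328 to 3262 of the 9301 genes had that p. Of 8 genes of the ERK5, MEF2 and FOXO routes upstream of KLF2, salmeterol with low dexamethasone raised MAPK7, which encodes ERK5, by 0.50 (adjusted p = 0.026) and lowered FOXO3, with a difference of -0.60 (0.0041), and 2 calls of 8 are a share near the 24.6% of all genes. FOXO1 was higher by 2.32 with salmeterol and low dexamethasone than with salmeterol (0.012).

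Among known targets of the members, IRF4 had calls in the most comparisons. Of 8 lymphocyte targets of KLF2, 3 were tested. CDKN1C, a cell cycle inhibitor, was the only call against untreated cells, higher by 1.06 with salmeterol and low dexamethasone (adjusted p = 0.0079). That is 1 of 3, against 24.6% of all genes called there. CDKN1A, another inhibitor, was higher in that combination than with low dexamethasone, by 0.65 (0.018). In that comparison 2 of the 3 were called, both higher, against 14.4% of all genes. In the myeloma circuit that joins KDM3A, KLF2 and IRF4, IRF4, the plasma cell survival factor, was lower than in untreated cells in all 6 treatments, with differences of -1.68 for salmeterol, -0.83 for CGS-21680, -1.06 for low and -1.26 for high dexamethasone, -3.18 for the salmeterol and -2.61 for the CGS-21680 combination (adjusted p from 2.2e-07 to 0.011). KLF2 rose in 4 of those 6 comparisons and fell in 1, and KDM3A and ITGB7 had no call. At an unadjusted p under 0.05 by limma, IRF4, KDM3A and ITGB7 all 3 differed between the salmeterol combination and untreated cells. That p was reached by 3262 of the 9301 tested genes in the same comparison.

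Of 7 tested targets of other members, 2 were higher with salmeterol and low dexamethasone, a share near the 24.6% of all genes called there. TGFB1, a target of KLF6, was higher by 2.26 (adjusted p = 1.3e-05), and by 1.96 with CGS-21680 and low dexamethasone (6.5e-05). PMAIP1, which encodes NOXA and is a target of KLF9, was 0.80 higher (0.026), while salmeterol alone lowered it, with a difference of -0.99 (0.032). Both had called salmeterol interactions, 1.50 for TGFB1 (0.01) and 2.57 for PMAIP1 (0.0037). These were the 2 calls of the 7 tested targets in the interaction, against 1.61% of all genes. SMAD7, a target of KLF10, was lower with salmeterol and low dexamethasone than with low dexamethasone, at -0.83 (0.033).

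Reference genes of the pathways moved with the treatments. The glucocorticoid genes TSC22D3 and FKBP5 both rose with low dexamethasone, with a median difference of 5.01, and the cyclic AMP genes CREM and PDE4B both rose with salmeterol, with a median of 3.19. CGS-21680 raised PDE4B, by 2.35 (adjusted p = 0.019), and not CREM by the test. The glucocorticoid genes also moved with the agonists. Salmeterol alone called 1 of the 2 higher, where 5.97% of all genes were called. Salmeterol or CGS-21680 added to low dexamethasone raised both again, with medians of 1.33 and 1.12, where 14.4% and 3.40% of all genes were called.

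Genes whose pattern over the 7 group means was most like that of a member were taken from 931 genes whose group means had an SD of at least 0.5, as Pearson r with no test. For KLF2 they were VPS37B (0.998) and ADGRG1 (0.994), and for KLF5 FOSL2 (0.995) and HPGD (0.99). KLF6 was most like HMGB3 (0.993) and P2RX5 (0.992), KLF7 most like S100A10 (0.974) and SAP30 (0.972), and KLF9 most like PHTF1 (0.995) and C16orf54 (0.992). The falling members were closest to HTATIP2 (0.972) and DEPTOR (0.964) for KLF10, SNAI3 (0.978) and FNDC3A (0.976) for KLF12, and MYOM2 (0.981) and NXPE3 (0.98) for KLF13. Within the family KLF6 and KLF9 (0.929) and KLF6 and KLF7 (0.917) were most alike. With 7 means of 2 arrays each, all from the same line, such values describe likeness and no more.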

How the data were processed

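Intensity values of 54675 probe sets on 14 arrays (7 groups of 2) were taken from the table the authors deposited. Per the submitters' processing notes they come from GCRMA, which corrects background, normalizes and summarises probes; the notes give no version. The linear scale was inferred from the values, which start at a floor of 4.879, and log2 of the deposited values was taken with no pseudocount. Exactly this lowest value, to within 1e-09 in log2, held 37.6% to 40.1% of the probe sets of an array. Precision is limited by the 2 arrays of each group.

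Of the probe sets, 11777 had no symbol in the platform annotation and 1801 had several, and both were left out. All 9301 genes and 14 arrays entered 1 linear model with a mean per group in limma (version 3.58.1, under R 4.3.3), with empirical Bayes moderation (7 residual and 2.3 prior degrees of freedom). P-values were adjusted by Benjamini-Hochberg over all genes, with a threshold of 0.05, and the script was tested on simulated data. SE are those of the model, and 95% intervals use its moderated statistic. The 15 comparisons are those of the report, and 7 alternatives and 14 fits without an array were run. The alternative called a variance trend also used robust empirical Bayes moderation, so the 2 changes were made together. The named genes are all members, up to 3 called genes of each list, and the nearest patterns. The members and lists were chosen with earlier results of these data known.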

Additional observations from a re-analysis of the deposited data

Results flagged for a closer look

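KLF5 differed in its response to salmeterol according to whether low dexamethasone was present. The interaction was 3.03 in log2 (adjusted p = 0.00099, limma), with 2 of 2 combination arrays above 6 and every array with salmeterol or dexamethasone alone below 4. Since the 3 other groups in it lie below 4, the size is not exact: with levels below 4 raised to 4 it was 2.29. KLF5 passed the filter only through the combination arrays, where it was high. With no filter the interaction stayed called (adjusted p = 0.00517).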

How the results depend on the processing

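Of 36 called differences of members, 242 of 252 fits under the 7 alternatives and 448 of 504 fits without an array kept the call, and 43 of 2079 fits of the uncalled differences made one. Counts of called members that moved by over 1.5 times (reported counts in parentheses) were 2 with no filter for salmeterol added to low dexamethasone (7), 0 with the mean of probe sets for CGS-21680 added to low dexamethasone (1), and, with a variance trend, 4 for salmeterol (2), 2 for its interaction (1) and 2 for CGS-21680 against salmeterol in the combinations (1). The replicate block gave 5 for low dexamethasone added to CGS-21680 (3). The labels do not say whether replicate numbers pair the samples, which were treated as unpaired. Differences of replicate 2 from replicate 1 correlated between groups at r from -0.173 to 0.255 (median 0.105) over 21 pairs of groups, 12 over 0.1. With the block KLF12 in salmeterol with low dexamethasone against low dexamethasone had an adjusted p of 0.0513. KLF10 with salmeterol (0.0426) and KLF3 in salmeterol with low dexamethasone against low dexamethasone (0.0284) passed with it. So did KLF3 (0.0248) and KLF5 (0.0487) in CGS-21680 with low dexamethasone against CGS-21680. Without 1 array the counts ran from 1 to 4 for salmeterol, 1 to 3 for low dexamethasone, 5 to 8 for salmeterol with low dexamethasone, 2 to 7 and 0 to 2 for salmeterol and CGS-21680 added to low dexamethasone, 1 to 3 for the salmeterol interaction and 1 to 2 between the combinations. KLF6 with high dexamethasone ran from -0.4452 to 0.8251, and its turn came with another probe set. Over all genes, with no filter, 281 were called for low dexamethasone (433), 497 for high (798), 977 for CGS-21680 with low dexamethasone (1468), 816 for low dexamethasone added to CGS-21680 (1279), 24 for the CGS-21680 interaction (14), 85 between the agonists (46) and 14 between the doses (0). The CGS-21680 interaction had 22 with the mean of probe sets or the block, which gave 72 between the agonists. Leaving out 1 array gave 213 to 571 calls over all genes for salmeterol (555), 11 to 52 for CGS-21680 (61), 187 to 448 for low (433) and 342 to 1066 for high dexamethasone (798), 1485 to 2340 (2288) and 861 to 1550 (1468) for the salmeterol and CGS-21680 combinations, 725 to 1417 (1341) and 99 to 287 (316) for these against low dexamethasone, 912 to 1605 (1512) and 877 to 1342 (1279) for them against their agonist, 82 to 152 (150) and 2 to 16 (14) for the interactions, 0 to 60 between the doses (0), and 8 to 70 (46) and 42 to 116 (112) between the agonists without and with dexamethasone. The causes were not tested. Levels under 4 and the floor limit KLF4, KLF5 and the dimmer KLF9 probe set.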
